A study of Mus musculus with 6 samples.

Results

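Ankrd33b, a gene for an ankyrin repeat domain protein, held a dense group of regions that were less methylated in young adult than in infant lung endothelial cells (EC). The list analysed here contains 18333 differentially methylated regions (DMRs) of the mouse genome, build mm10, from T-WGBS, whole genome bisulfite sequencing with libraries made by tagmentation, which reads the methylation of single CpGs from little DNA. The Ankrd33b DMRs are the 38 of these 18333 regions whose midpoint lay between the ends of the gene, at chr15:31291479-31367759 on the minus strand. The gene was chosen by its number of DMRs with loss of methylation, and each DMR was selected on the difference between the same group means that are described here. The differences are therefore values of selected regions, and none was tested.

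EC were sorted by the study from lungs of C57BL/6N mice, which its methods describe as female, as viable CD31+CD34+ cells that lacked PTPRC, LYVE1, LY76 and PDPN. The infant group comprised 3 samples from 3 mice of 8 to 10 days and the young adult group 3 samples from 3 mice of 8 to 12 weeks, with no treatment or transgene named in either group. The question addressed is how the methylome of lung EC differs between the growing and the mature lung vasculature. The table gives 1 mean per group and DMR, as a fraction from 0 to 1 that is printed below as percent methylation. Values of single samples and the read depth of a DMR were not analysed here, so no spread between samples, no error of a group mean and no test between the groups can be given. Only the authors' filter bears on the depth, which required a coverage of at least 8 reads at a CpG in 2 of the 3 samples. Methylation alone was measured in these libraries, so the EC identity could not be checked here against marker expression, which the study measured by qPCR in its sorted populations.

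In mammals, DNA methylation is set mainly on the cytosine of CpG dinucleotides, and it is largely absent from active CpG-rich promoters. Active enhancers, many of which lie in introns, tend to carry lower methylation than the surrounding gene body. Ankyrin repeats are short helical units that stack into a surface for binding other proteins, and the role of Ankrd33b in EC is not described in the labels. A group mean is an average over all sorted cells of 3 samples, so a lower share of cells with a methylated region and partial demethylation within each cell cannot be told apart.

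The sequences of 6 DMRs are shown because they cover the range of the group, with the 2 largest losses (DMR 5 and DMR 16), a further large loss in few bases (DMR 19), the lowest young adult level (DMR 18) and the 2 DMRs nearest to the 3′ end of the gene (DMR 37 and DMR 38). They were read from the plus strand of GRCm38.p6 (mm10) 5′ to 3′, with every CpG in capitals, and DMRs are numbered from the transcription start site (TSS) in the direction of transcription.
DMR 5, chr15:31359788-31360087, the first 300 of its 305 bases: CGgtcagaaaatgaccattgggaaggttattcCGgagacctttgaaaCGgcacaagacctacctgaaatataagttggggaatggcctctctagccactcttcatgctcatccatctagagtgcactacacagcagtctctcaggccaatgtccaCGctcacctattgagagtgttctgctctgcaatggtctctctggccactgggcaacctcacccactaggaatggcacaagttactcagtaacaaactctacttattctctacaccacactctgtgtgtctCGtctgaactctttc
DMR 16, chr15:31347888-31347967: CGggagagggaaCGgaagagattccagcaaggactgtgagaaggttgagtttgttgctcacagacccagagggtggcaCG
DMR 19, chr15:31345157-31345206: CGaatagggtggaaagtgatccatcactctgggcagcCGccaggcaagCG
DMR 18, chr15:31345357-31345656, the first 300 of its 310 bases: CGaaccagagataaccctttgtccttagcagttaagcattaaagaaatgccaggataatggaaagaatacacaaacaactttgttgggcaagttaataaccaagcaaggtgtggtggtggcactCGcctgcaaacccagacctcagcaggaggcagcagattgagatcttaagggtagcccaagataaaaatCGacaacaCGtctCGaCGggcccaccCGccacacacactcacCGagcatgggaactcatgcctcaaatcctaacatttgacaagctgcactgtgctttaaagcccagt
DMR 37, chr15:31306033-31306064: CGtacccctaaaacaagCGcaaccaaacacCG
DMR 38, chr15:31299558-31299680: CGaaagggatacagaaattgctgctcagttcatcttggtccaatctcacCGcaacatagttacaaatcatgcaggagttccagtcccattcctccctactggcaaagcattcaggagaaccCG

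CpGs were spaced unevenly over these stretches. DMR 5 had 6 CpGs in 305 bp, and DMR 38 had 3 CpGs in 123 bp. DMR 37 packed 3 CpGs into 32 bp, and in DMR 18 a run of capitals marks a local group of CpGs.

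All 38 Ankrd33b DMRs had a lower mean in young adult than in infant EC, and none had a higher one, where 45.9% of all 18333 DMRs lost methylation. The median over the 38 DMRs was 71.2% methylation in infant EC and 30.1% in young adult EC, and the median difference was -41.2 percentage points. Over all 8422 loss DMRs of the genome the medians were 61.5% and 25.4%, with a median difference of -32.5 percentage points. The Ankrd33b DMRs thus started from a higher infant level than the median loss DMR and differed by more. They did not end lower, with a median of 44.4% of the infant level left in young adult EC against 42.8% over all loss DMRs. These medians describe regions chosen for their loss.

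Among the 38 DMRs, 33 (86.8%) had a loss of at least 30 percentage points. This held for 28.1% of all DMRs, gains included, and for 61.2% of all loss DMRs. A loss of at least 40 points was found in 20 of the 38 (52.6%), against 9.34% of all DMRs and 20.3% of all loss DMRs. The losses ran from 22.2 points (DMR 38) to 55.8 points (DMR 5). Of the 8422 loss DMRs, 91 had a larger difference than DMR 5, and 953 had a smaller one than DMR 38. The classes of 40 to 45 and of 45 to 50 points held 9 and 8 of the 38 Ankrd33b DMRs, and 10.9% and 5.68% of all loss DMRs. The class of 30 to 35 points, the fullest over the genome with 22.6% of loss DMRs, also held 9 Ankrd33b DMRs (23.7%).

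**Figure D1:**
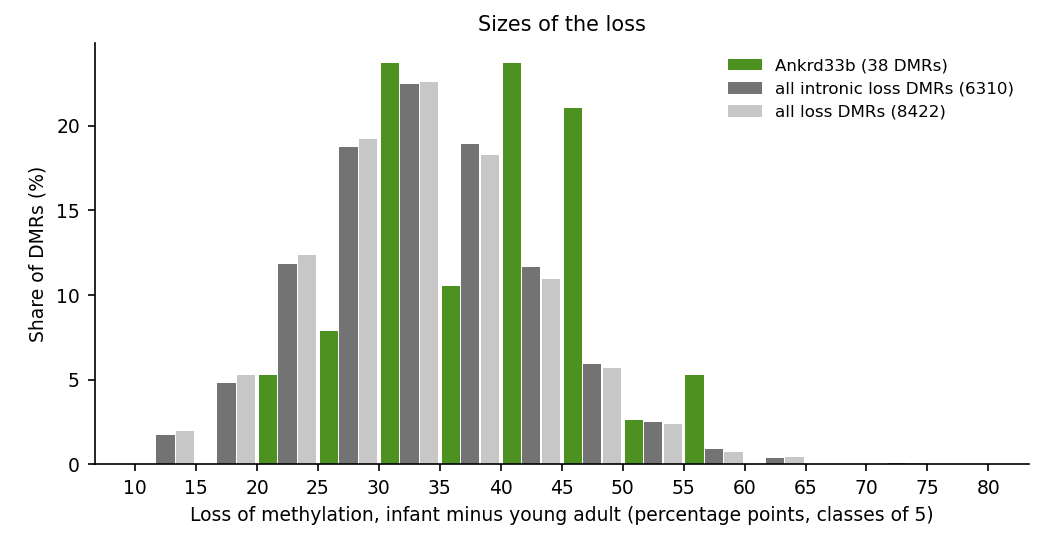
Share of DMRs (%, vertical axis) by size of the loss in classes of 5 percentage points (horizontal axis), for the 38 Ankrd33b DMRs (green), all 6310 intronic loss DMRs (dark grey) and all 8422 loss DMRs (light grey). The class of 45 to 50 points holds 21.1% of the Ankrd33b DMRs and 5.68% of all loss DMRs, and no Ankrd33b DMR lies below 20 points.

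Infant levels separated the Ankrd33b DMRs into a large intermediate group and smaller groups at either end. The infant mean was at least 80% in 12 DMRs, between 50% and 80% in 21 and below 50% in 5. The median young adult level of these groups was 42.3%, 24.5% and 13.7%, in this order. DMRs that were high in infant EC thus tended to rank high in young adult EC, although 9 of the 12 highest ended below 50%. The order of the 38 DMRs was largely kept between the ages. Spearman rho was 0.86 and Pearson r 0.81 between their infant and young adult means. The same rho was 0.89 over all 8422 loss DMRs. These points share the same 6 samples, and the correlation is a description only.

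Few of the 38 DMRs reached a low level in young adult EC. The young adult mean was below 20% in 9 of the 38 DMRs, where 17.5% of all DMRs, gains included, had lost methylation to that level. This is a share of 23.7%, below the 38.1% of all loss DMRs. The young adult mean was between 20% and 50% in 26 DMRs and at or above 50% in 3. The lowest young adult level was found in DMR 18, which fell from 52.1% to 6.70%. DMR 14 was next, and fell from 40.8% to 9.03%. The 3 DMRs that stayed at or above 50% were DMR 9, DMR 31 and DMR 37, all of which had an infant mean above 80%.

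**Figure D2:**
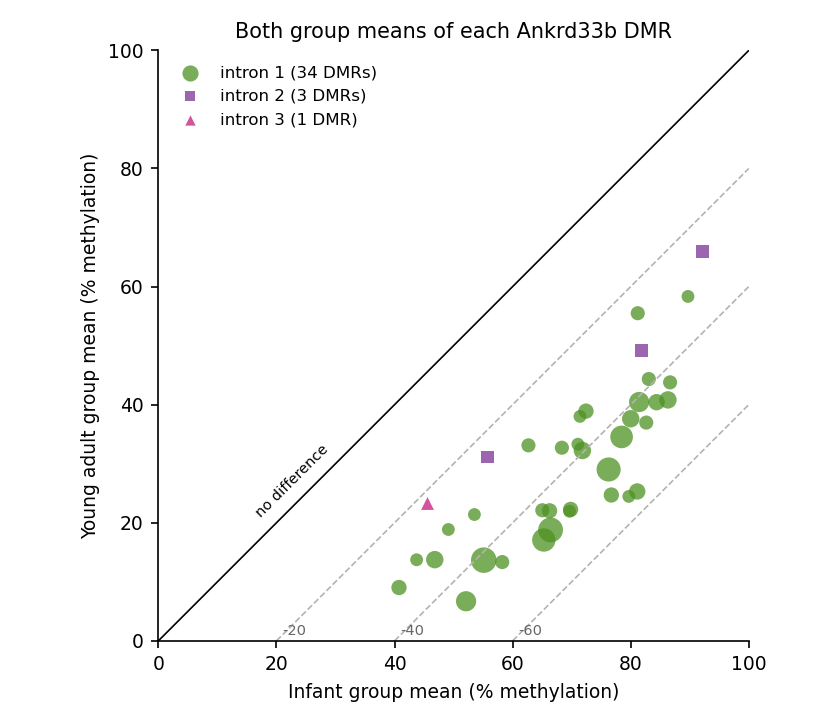
Infant group mean (horizontal axis, % methylation) against young adult group mean (vertical axis, % methylation) of the 38 Ankrd33b DMRs, by intron, with point area rising with the number of CpGs. Every point lies below the solid line of no difference and beyond the dashed line of a 20-point loss, and the 20 points past the dashed line of a 40-point loss are all in intron 1.

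The DMRs were placed on RefSeq transcript NM_001164441, the Ankrd33b transcript with the longest coding sequence (1461 bp), which has 4 exons over 76.3 kb. Intron 1 (chr15:31325216-31367038) held 34 of the 38 DMRs, which is 89.5%. It makes up 54.8% of the length of the gene and 54.2% of its CpGs. Intron 2 (chr15:31305133-31325085) held 3 DMRs and intron 3 (chr15:31297985-31304991) held 1. No DMR overlapped an exon of any of the 5 curated transcripts, including the alternative exons near exon 2, and the nearest to an exon was DMR 35, at 213 bp.

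The crowding in intron 1 was also seen per CpG. DMRs contained 228 of the 1102 CpGs of the gene, or 20.7%. In intron 1 they contained 216 of 597 CpGs (36.2%), against 9 of 241 (3.73%) in intron 2 and 3 of 76 (3.95%) in intron 3. Intron 1 carried 8.13 DMRs per 10 kb, and intron 2 carried 1.504. The 4 exons, which hold 81, 5, 4 and 98 CpGs, carried none.

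Methylation levels also differed between the introns. The 34 DMRs of intron 1 had a median infant mean of 71.2%, a median young adult mean of 27.2% and a median difference of -42.6 percentage points. The 3 DMRs of intron 2 were at 81.9% and 49.2% (DMR 35), 55.7% and 31.1% (DMR 36) and 92.1% and 66.0% (DMR 37), with the infant mean given first. DMR 38 in intron 3 was at 45.5% and 23.4%. The losses of DMR 36, DMR 37 and DMR 38, of 24.6, 26.2 and 22.2 points, were 3 of the 4 smallest of the gene, and the infant levels of the 4 DMRs outside intron 1 spanned nearly the whole range of the group.

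**Figure D3:**
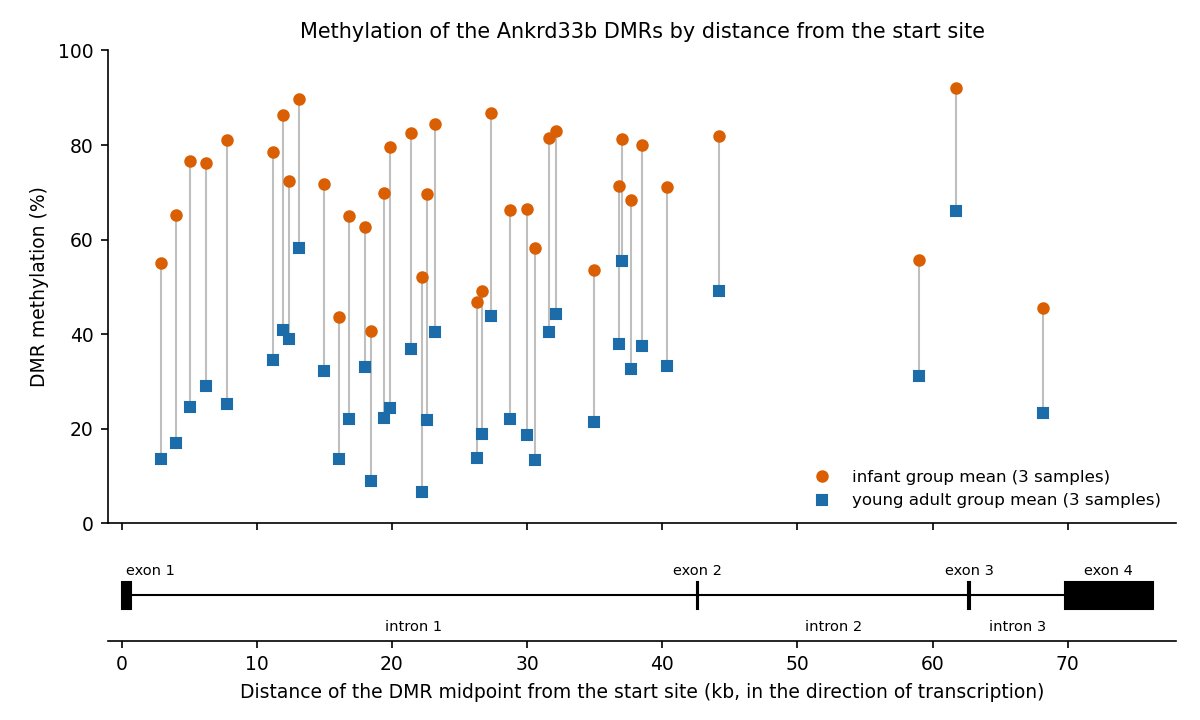
Group means (vertical axis, % methylation) of the 38 Ankrd33b DMRs against the distance of the DMR midpoint from the TSS (horizontal axis, kb), with orange circles for infant and blue squares for young adult EC, grey lines joining both means of a DMR and the exons of the gene below. The young adult mean lies below the infant mean in all 38 DMRs, 34 of them in intron 1, and no DMR lies in an exon.

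The start of the gene was free of DMRs. Exon 1, at chr15:31367039-31367759, had 81 CpGs in 721 bp and a GC content of 70.0%, against 1.44 CpGs per 100 bp and a GC content of 47.7% over the whole gene. From the TSS to DMR 1, 2329 bp with 141 CpGs contained no DMR. The list holds only regions that passed the DMR model, so nothing can be read from it about CpGs outside the DMRs. The 300 bases around the TSS are shown for contrast with the DMRs, taken from RefSeq on the minus strand of GRCm38.p6 at chr15:31367710-31368009, most of them upstream of the TSS, with CpGs in capitals.
Ankrd33b start site: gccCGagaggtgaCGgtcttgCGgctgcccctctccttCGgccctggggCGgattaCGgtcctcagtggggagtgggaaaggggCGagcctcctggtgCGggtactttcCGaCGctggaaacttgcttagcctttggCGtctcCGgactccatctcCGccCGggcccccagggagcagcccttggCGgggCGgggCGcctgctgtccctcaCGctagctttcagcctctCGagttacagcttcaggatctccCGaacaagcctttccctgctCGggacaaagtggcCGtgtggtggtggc

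This stretch has 22 CpGs in 300 bases, against 5 in the 300 bases of DMR 5 shown above. No DMR overlapped it.

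Along intron 1 the DMRs fell into 4 runs, when DMRs at most 2 kb apart were counted as 1 run, and the 4 DMRs of introns 2 and 3 stood alone. The runs held 5, 15, 8 and 6 DMRs and lay 2.93 to 7.82 kb, 11.2 to 23.2 kb, 26.3 to 32.1 kb and 34.9 to 40.4 kb from the TSS. Beyond DMR 34 the density dropped. A stretch of 14629 bp with 162 CpGs in intron 2 separated DMR 35 from DMR 36 and held no DMR.

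**Figure D4:**
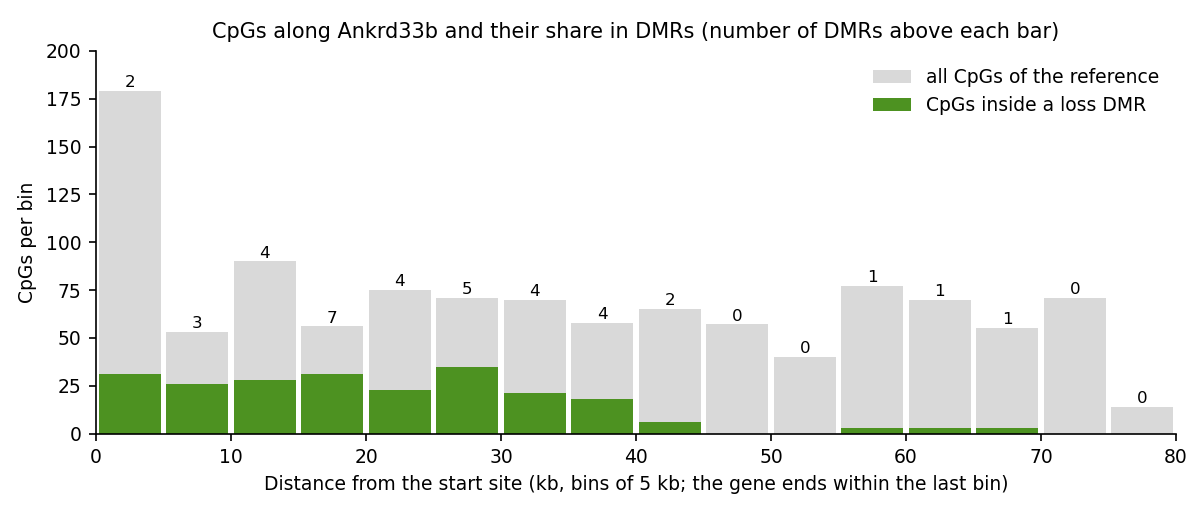
CpGs of the reference (grey) and CpGs inside loss DMRs (green) in bins of 5 kb from the TSS (horizontal axis, kb), with the number of DMRs above each bar. DMRs hold 30 to 55.4% of the CpGs in each bin from 5 to 40 kb, 9.23% from 40 to 45 kb and at most 5.45% in any later bin, while the CpG-rich first bin has 17.3% of its 179 CpGs in DMRs.

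The first run, nearest to the TSS, held the DMR with the most CpGs and 3 of the 5 largest losses. DMR 1, at chr15:31364226-31365430, was the widest of the gene with 1205 bp and had the most CpGs with 17, and its mean was 55.1% in infant EC and 13.7% in young adults. DMR 2 (14 CpGs in 669 bp) was at 65.3% and 17.1%, and DMR 3 (5 CpGs in 469 bp) at 76.7% and 24.7%. DMR 4 (15 CpGs in 799 bp) was at 76.3% and 29.0%. In this run the infant level was lowest next to the TSS and highest in DMR 5, at 81.1%, and every loss was at least 41.4 points.

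DMR 5 (chr15:31359788-31360092), whose sequence is printed above, showed the largest loss of the gene, from 81.1% to 25.3%. It is also the region that the study chose for an amplicon of MassARRAY, a mass spectrometry assay of bisulfite-treated DNA. The primers are shown because they fix which CpGs that assay read, and their sequences come from the study's primer list.
Forward primer: AGTAAGAGTTAATTTAAGTGTGTTTG
Reverse primer: CCCTTCCCTTAACCTCCTAATC

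Matched to the bisulfite-converted gene, both primers fitted at 1 place, chr15:31359753-31360115 (363 bp). Between the primers lay 6 CpGs, all 6 of which belong to DMR 5. The amplicon touched no other DMR.

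The second run was the longest, with 15 DMRs over 12.6 kb, and the most varied. It opened with DMR 6 (13 CpGs in 943 bp), at 78.5% in infant EC and 34.5% in young adults, and DMR 7 and DMR 8, at 86.3% and 40.8% and at 72.4% and 38.9%. DMR 9, with 3 CpGs in 28 bp the narrowest of the gene, was at 89.7% and 58.3%. Each of these 4 DMRs thus stayed at 34.5% or more in young adult EC.

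Lower levels followed within the same run. DMR 11 was at 43.7% in infant EC and 13.7% in young adults, and DMR 14 at 40.8% and 9.03%. DMR 13 between them was at 62.7% and 33.1%, with a loss of 29.6 points that was the fifth smallest of the gene. DMR 10 (71.8% and 32.2%) and DMR 12 (65.0% and 22.1%) lay at intermediate levels. High and low DMRs thus alternated over a short distance.

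The far end of the second run held the second and the fifth largest losses. DMR 16 (3 CpGs in 80 bp) fell from 79.7% to 24.5%, by 55.2 points. DMR 19 (3 CpGs in 50 bp) fell from 69.6% to 21.9%, by 47.7 points. Its neighbour DMR 18, only 150 bp away and with 10 CpGs in 310 bp, had the lowest young adult level of all 38, so neighbours with the same direction ended at 21.9% and 6.70%. DMR 15 (69.8% and 22.3%), DMR 17 (82.6% and 37.0%) and DMR 20 (84.4% and 40.4%) completed the run.

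Next came a run of 8 DMRs over 6.07 kb, which contained 4 of the 9 DMRs below 20% in young adult EC. DMR 21 was at 46.8% and 13.7%, and DMR 22 at 49.1% and 18.9%. DMR 25, with 16 CpGs in 585 bp, was at 66.4% and 18.8%, and DMR 26 at 58.2% and 13.3%. The other 4 DMRs of this run were at 66.3 to 86.7% in infant EC and 22.0 to 44.3% in young adults. As in the second run, DMRs with low and high young adult levels lay side by side.

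The last run in intron 1 had smaller losses and fewer CpGs. Its 6 DMRs lost 25.7 to 42.4 points, with a median difference of -34.5 percentage points against -48.2 in the first run. DMR 31 (4 CpGs in 101 bp) fell by 25.7 points, from 81.2% to 55.5%, the smallest loss in intron 1. None of the 6 DMRs was below 20% in young adult EC, and only DMR 33 had 5 or more CpGs, with 7 in 355 bp.

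Over the 38 DMRs the loss was smaller at a greater distance from the TSS, with a Pearson r of -0.61 and a Spearman rho of -0.50 between distance and size of the loss. Within the 34 DMRs of intron 1 rho was -0.34. The number of CpGs per DMR also fell with distance (rho -0.52 over 38, -0.39 over 34), and DMRs with more CpGs had larger losses (rho 0.50 over 38, 0.27 over all loss DMRs). The infant level was not ordered by distance, with a rho of 0.02. These correlations are across regions of 1 gene that share the same 6 samples, and the part of the number of CpGs in the trend with distance was not tested.

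In plain medians, the difference was -43.4 percentage points over the 16 DMRs within 20 kb of the TSS and -38.2 over the 22 beyond it. Their infant medians were close, at 72.1% and 70.3%. Their young adult medians were 24.99% and 33.0%. Across single DMRs the young adult level was only weakly ordered by distance, with a rho of 0.27 over 38 and 0.19 over the 34 of intron 1. The number of DMRs with 5 or more CpGs was also higher near the TSS, at 68.8% of the 16 against 31.8% of the 22.

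Steps in level between adjacent DMRs were about as large as those between any pair of Ankrd33b DMRs. Over the 37 pairs of neighbours the median step was 13.9 points in infant and 15.2 points in young adult EC. Over all 703 pairs it was 13.7 and 13.5 points. Neighbours were separated by a median of 614 bp, and the closest pair, DMR 6 and DMR 7, by 54 bp.

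The DMRs were wider than most, with a median width of 236 bp against 131 bp over all loss DMRs, and held 6.00 CpGs on average against 4.17. At least 5 CpGs were found in 18 of 38 (47.4%) and in 25.6% of all loss DMRs. Of the 15 gaps of at most 500 bp between neighbouring DMRs, all contained at least 1 CpG, 60 CpGs in total, which the DMR model had not included. GC content was close to that of other loss DMRs, with a median of 48.6% (from 41.2% in DMR 20 to 60% in DMR 19) against 50.4%.

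Repeat sequence, as masked in the reference, was present in 24 of the 38 DMRs. A share of 36.8% was free of it, against 55.1% of all loss DMRs, and the part of their greater width in this was not tested. By bases, 17.2% of the DMR sequence was masked, below the 23.3% of the whole gene. Only DMR 8, DMR 9 and DMR 23 were masked over 50% or more of their length.

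Short motifs of transcription factor families were searched on both strands in windows of 200 bp centred on each DMR, and a match is a description of letters, not a binding site. Motifs may overlap each other. The E-box (CANNTG), which basic helix-loop-helix factors recognise, was present in 31 of the 38 windows (81.6%), in 65.3% of windows at all loss DMRs and in 70.3% of 283 windows that tile the rest of the gene. The ETS core AGGAAG, read by a factor family with central roles in EC, was present in 9 of 38 (23.7%), in 29.3% at all loss DMRs and in 23.7% of the rest of the gene. The rarer ETS letters CCGGAA, which hold a CpG, were found in 2 windows (DMR 4 and DMR 31), or 5.26% against 4.27%.

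Of the other families, KLF/SP alone was found at a share more than 5 percentage points above that over all loss DMRs. GATA and FOX were more than 5 points below it. In the 283 windows of the rest of the gene, the shares were 17.0% for KLF/SP, 7.07% for GATA and 2.47% for FOX. Letters of GATA factors (AGATAA) were found in 2 windows (5.26% against 13.8%), AP-1 (TGANTCA) in 1 (2.63% against 6.84%) and FOX (GTAAACA) in none, where 5.91% of loss DMRs held it. SOX letters were found in 5 (ACAAAG, 13.2% against 17.1%) and 4 windows (ACAATG, 10.5% against 9.50%), TEAD (GGAATG) in 4 (10.5% against 11.2%) and RBPJ (GTGGGAA) in 1 (2.63% against 4.84%). KLF/SP (CCACCC) was found in 9 windows (23.7% against 17.5%), and the SMAD letters CAGACA in 7 (18.4% against 20.1%). The longer SMAD palindrome GTCTAGAC and the NF-kB motif were in no window. DMR 5, the largest loss, held TEAD letters alone, and 10 of the 38 windows held the E-box and none of the other 13 motifs searched.

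The group thinned out toward the 3′ end of the gene and had a further DMR just past the TSS. Just inside the gene, DMR 1 lay 2932 bp downstream of the TSS. Just outside, a loss DMR of 4 CpGs lay 2099 bp upstream of the TSS, at chr15:31369805-31369912, which fell from 49.9% to 9.50%. At the other end DMR 38 lay inside the gene at 45.5% and 23.4%, and the next DMR (chr15:31233431-31233464, 69.0% and 39.3%), in an intron of Dap, was 58.0 kb beyond the end of the gene. The smallest difference of a member, 22.2 points, was above the 10% that the DMR model asked for, so no member lay at that limit.

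Within 300 kb to either side of the gene, 13 further DMRs were listed, 10 with loss and 3 with gain, which is 0.217 DMRs per 10 kb against 4.98 in the gene. A group of 4 loss DMRs lay 43.3 to 55.6 kb upstream of the TSS, between Ankrd33b and Ropn1l, a sperm fibrous sheath gene without a DMR. The first of them (chr15:31410991-31411187) was at 67.9% and 23.7%, and the others were at 26.0 to 46.0% in infant EC and 4.96 to 18.4% in young adults. Each of the 4 had a lower infant mean than the median Ankrd33b DMR.

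Of the 7 protein-coding neighbours, none held more than 2 DMRs. Marchf6, for an endoplasmic reticulum ubiquitin ligase, held 2 loss DMRs, at 74.3% and 29.2% and at 46.1% and 20.1%. Dap, for death-associated protein, held 1 loss DMR. Ctnnd2, for the junctional protein delta-catenin, and Cmbl, for a hydrolase, held 1 gain DMR each, from 74.0% to 86.6% and from 48.4% to 72.4%. Cct5, for a chaperonin subunit, and Atpsckmt, for a mitochondrial methyltransferase, held none. These counts cover gene bodies only. A loss DMR lay just upstream of Dap (chr15:31223537-31223632, 74.5% and 32.4%), and another just upstream of Cmbl (chr15:31568341-31568465, 70.1% and 35.8%).

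Each of the other genes named for ankyrin repeats held fewer DMRs than Ankrd33b. Of 47 annotated genes whose symbol begins with Ankrd, 30 held no DMR, and the 46 genes other than Ankrd33b held 31 loss and 12 gain DMRs together. The share of all annotated genes without a DMR was not computed, so these counts are not read as a trait of the family. Over all genes with a loss DMR, the median was 1 loss DMR per gene. Ankrd44 was next with 18 loss DMRs and 1 gain DMR over 281 kb, followed by Ankrd29 with 3 and 1, Ankrd11 with 3 and 0 and Ankrd46 with 2 and 0. The gains were spread thinly, with 2 in Ankrd13a and 1 each in 10 other genes. The medians of Ankrd44 were 59.7% in infant EC and 29.4% in young adults, against 71.2% and 30.1% in Ankrd33b.

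Among all genes, Ankrd33b ranked 12 of 2215 by the number of loss DMRs, the measure that the choice of the gene rests on. By loss DMRs per 10 kb it ranked 22 of 474 genes with more than 5 DMRs, whose median was 0.528 per 10 kb. Of the 12 genes with at least 38 loss DMRs, 9 held no gain DMR. By share of CpGs inside DMRs it ranked 14 of the 474, with 20.7% against a median of 2.33%.

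Set beside Tmcc3, Aff3 and Msi2, 3 long genes with a similar number of DMRs, Ankrd33b held them in a shorter gene. This density was not particular to Ankrd33b. Kitl with 44, Epas1 with 46, Cyth3 with 50 and Smad6 with 61 loss DMRs had 5.20, 5.78, 5.69 and 8.84 per 10 kb. Tmcc3, for a membrane protein of the endoplasmic reticulum, held 40 loss and 4 gain DMRs in 279 kb. Aff3, for a nuclear factor of the AF4 family, held 43 loss and 1 gain DMR in 451 kb, and Msi2, for a Musashi RNA-binding protein, held 36 loss DMRs in 379 kb. Ankrd33b had 4.98 DMRs per 10 kb, against 1.58, 0.975 and 0.9501 in Tmcc3, Aff3 and Msi2. It also had the largest share of CpGs in DMRs of the 4 genes, as the others had 5.01%, 3.42% and 2.92%.

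The median difference was -41.2 percentage points in Ankrd33b, -35.3 in Tmcc3, -31.7 in Aff3 and -34.7 in Msi2, counting gains where there were any. The ranges of single DMRs overlapped between all 4 genes. The standard deviation over DMRs of the infant mean was 13.99 points in Ankrd33b (n = 38 DMRs), 18.6 in Tmcc3 (n = 44), 21.04 in Aff3 (n = 44) and 17.9 in Msi2 (n = 36). For placement, the transcript with the longest coding sequence of each gene was used. Of the 44 DMRs of Tmcc3, only 28 fell in an intron of that transcript, 27 of them in intron 1. Intron 1 held 27 of the 44 DMRs of Aff3, whereas 31 of the 36 DMRs of Msi2 were in intron 5 and none in intron 1. No test stands behind these differences, since DMRs of a gene are not replicates.

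**Figure D5:**
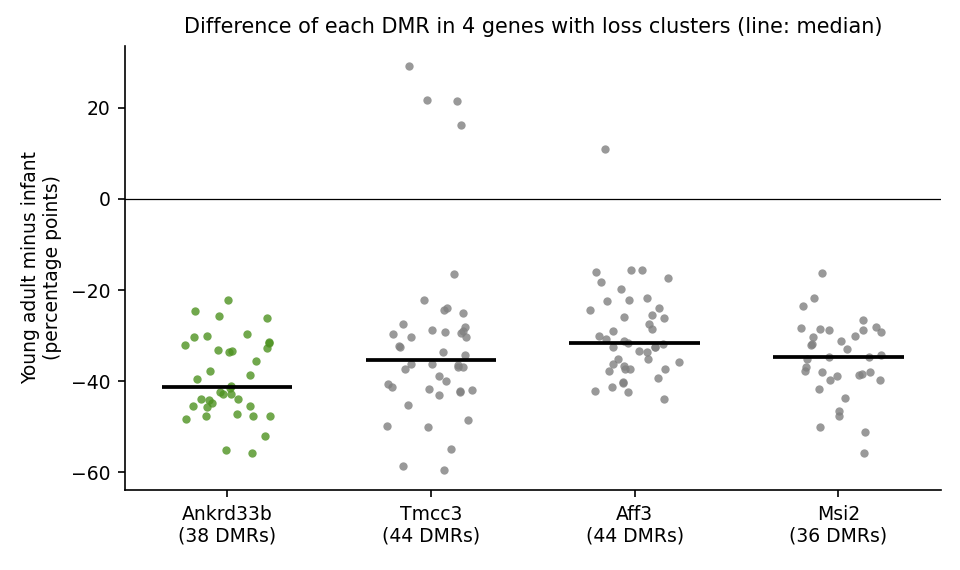
Difference of each DMR (vertical axis, young adult minus infant group mean, percentage points) in 4 genes with many loss DMRs, 1 point per DMR spread sideways for legibility, with a line at the median. All 38 Ankrd33b points lie between -55.8 and -22.2, while Tmcc3 and Aff3 also hold 4 and 1 points above 0.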

How the data were processed

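EC were analysed by T-WGBS in 3 infant and 3 young adult samples. The authors trimmed reads with SeqPrep, aligned them with BWA 0.6.1 to mm10 converted in silico, removed duplicates with Picard and left out read ends affected by tagmentation. DMRs were defined by the authors with bsseq in R 3.2.2 as at least 3 consecutive CpGs, each with p under 0.05 and with group means at least 10% apart. The deposited values are fractions, 1 mean per group and DMR, with no values per sample, and the deposited ends are the first and last CpG, which matched GRCm38.p6 in 18333 of 18333 DMRs.

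Here fractions were multiplied to percent, and CpGs, GC content, masked bases and motifs were counted in the reference with pysam 0.24.0 and pandas 2.3.3 in Python 3.11.15, after tests on simulated data. CpGs between the ends of a DMR were counted whether or not they were covered. Members, comparison genes, motifs and the Ankrd list were chosen with earlier results of these data known. DMRs were named by rule: the 5 largest and smallest losses, the widest, the one with most CpGs and any that the amplicon touched. The rule also named the 3 comparison genes, the neighbours within 300 kb and the Ankrd genes with most loss or gain DMRs. Further DMRs, and Kitl, Epas1, Cyth3 and Smad6, were named after their values were seen. With 1 mean per group and no depth, no test between groups and no error of a group mean was computed. Intervals of medians and shares over DMRs (95%) were used at most to judge how far an alternative setting moved a value, and are not printed.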

Additional observations from a re-analysis of the deposited data

How the results depend on the processing

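Counting DMRs by any overlap of at least 1 base left 38 DMRs, and extending the gene by 10 kb on either side gave 39, all with loss. Requiring a difference of at least 20 percentage points removed none. Requiring at least 5 CpGs left 18 DMRs, all 18 with loss and 100% of them in intron 1. Joining DMRs at most 500 bp apart left 23, all 23 with loss and 82.6% of them in intron 1. With the extended gene, the share in intron 1 was 87.2%, against 89.5% in the main count. Under these settings and under weighting by CpGs, the median difference stayed between -44.1 and -39.6 percentage points, the infant median between 71.0% and 72.1% and the young adult median between 24.99% and 31.1%.

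No paired analysis was possible because the table holds 1 mean per group, and for the same reason leaving out single samples was not run. The depth behind a DMR and the spread between mice are unknown here, so the difference between neighbouring DMRs could not be set against error. Only regions that passed the authors' thresholds are listed, so sizes of loss are those of selected regions, and CpGs outside DMRs cannot be read as unchanged.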
